A study of Mus musculus with 6 samples.

Results

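Elastic fibers give tissues recoil, and in the back of the eye they form the middle layer of Bruch's membrane, the sheet of extracellular matrix between the retinal pigment epithelium (RPE) and the choroid. The elastic fiber genes described here are Eln, Fbn1, Fbln1, Fbln2, Fbln5, Efemp1, Efemp2, Mfap4, Mfap5 and Emilin1. They were chosen by name, by a rule that uses no counts but was written with earlier results of these data known, and make up 10 of the 15663 genes in the tables. All 10 were listed and all 10 passed the filter on low counts.

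An elastic fiber has a core of cross-linked elastin, made from the soluble tropoelastin that Eln encodes, and a scaffold of microfibrils built from fibrillin-1 (Fbn1). Fibulins and other microfibril-associated proteins bring tropoelastin to the scaffold, and lysyl oxidases cross-link it there. Damage to the elastic layer of Bruch's membrane is a known feature of age-related macular degeneration, and the fibulin-3 gene EFEMP1 is known from an inherited form of macular drusen in people.

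RPE-choroid was taken from 3 control mice, which were untreated, and from 3 mice with subretinal fibrosis (SRF), each mouse giving 1 library. The labels give C57BL/6 mice, and the study's methods give C57BL/6J males of 8 to 10 weeks. SRF mice had 4 laser burns in each eye, a second burn on every lesion 10 days later, and RNA extraction 20 days after that second burn. The comparison asks which transcripts differ in fibrotic RPE-choroid as a whole, since the untreated area of each eye was not separated from the lesions. In such bulk RNA, fewer cells of a type and less RNA per cell cannot be told apart, and the counts do not say whether a transcript came from Bruch's membrane, sclera or vessel wall.

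Counts on genes summed to 13667310, 18885187 and 24356023 in control mice 1, 2 and 3 and to between 17536248 and 18267377 in SRF mice. Control mouse 1 was thus the shallowest library and control mouse 3 the deepest. The values below are CPM, counts scaled to a common library size with edgeR's TMM factors, and SRF was set against control in the quasi-likelihood test of edgeR over 13454 genes. The summed CPM of 12 RPE markers lay between 44951 and 53363 in control and between 30110.5 and 39969 in SRF libraries, so the labelled tissue was present throughout. Control mouse 1 and SRF mouse 3 stood apart, with 13366 and 12884 CPM summed over 15 photoreceptor markers against 748 to 1823 CPM in the other 4 libraries. Control mouse 1 also had the least ocular surface epithelium RNA, at 80.0 CPM over 6 markers against 200.5 to 872 CPM elsewhere.

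None of the 10 elastic fiber genes passed the threshold for a change in SRF, set at 0.05 for the adjusted p-value together with 0.5 for the size of the log2 fold change. The share called over all tested genes was also 0.0%, and DESeq2, the study's own test, called 1.14% of all genes and 0 of the 10. The fold changes leaned upward, with 9 of the 10 members higher in SRF against 50.3% of all tested genes. Their median log2 fold change was 0.24, and that of all tested genes was 0.00. Without control mouse 1 the members' median was 0.06, with 7 of 10 higher. A log2 fold change of 0.5 or more was reached by 1 member, Eln (5.42% of all genes). Before adjustment, p was under 0.05 for 2 members, Eln and Mfap5, with edgeR and also with DESeq2 (7.01% of all genes in edgeR and 7.23% in DESeq2). The lowest adjusted p-value among the members was 0.427 in edgeR and 0.149 in DESeq2, both for Mfap5 with Benjamini-Hochberg adjustment. The groups did not overlap for 1 member, Mfap5, against 13.1% of all tested genes, or 6.71% when genes higher in SRF are counted alone.

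**Figure D1:**
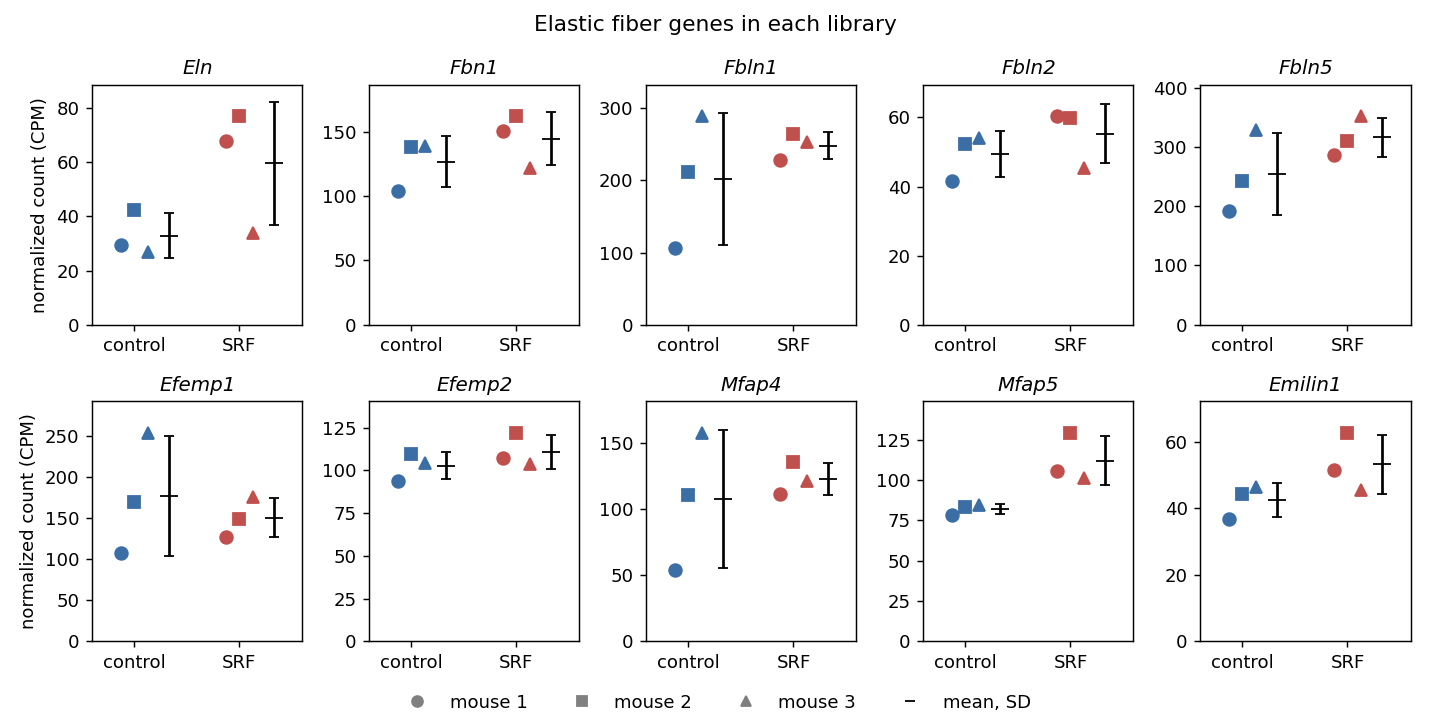
Normalized count (CPM, vertical axis from 0) of each elastic fiber gene in the 3 control (blue) and 3 SRF (red) libraries, with the mean and SD beside each group in black. The Mfap5 values of the groups do not overlap, while control mouse 1 (blue circle) lies lowest of the 6 libraries for 9 of the 10 genes.

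Eln (ENSMUSG00000029675, GRCm38 chromosome 5, 134702593 to 134747323, reverse strand), which encodes the elastic core itself, had the largest fold change of the members. It was at 29.6, 42.2 and 26.9 CPM in control mice 1, 2 and 3 and at 67.8, 77.0 and 33.8 CPM in SRF mice 1, 2 and 3. SRF mice 1 and 2 were thus above every control mouse, while SRF mouse 3 lay below control mouse 2, so the groups overlapped. The means were 32.9 ± 8.19 and 59.5 ± 22.8 CPM (SD, n = 3). The log2 fold change was 0.86 with a standard error of 0.32, and p was 0.636 after Benjamini-Hochberg adjustment in edgeR. A two-sided exact permutation test gave p = 0.2. Leaving out single mice gave log2 fold changes from 0.63, without SRF mouse 2, to 1.14, without SRF mouse 3. In edgeR the unadjusted p-value was above 0.05 in 4 of these 6 fits, those without control mouse 1, control mouse 3, SRF mouse 1 or SRF mouse 2. When control mouse 1 and SRF mouse 3, the photoreceptor-rich libraries, were both left out, the log2 fold change was 1.07 and the adjusted p-value 0.0513 in the same edgeR test. That fit called 1.14% of all genes and 0 members, and 3 members, Eln, Mfap5 and Efemp1, had an unadjusted p-value under 0.05 (17.5% of all genes).

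Among the microfibril genes, Mfap5 (ENSMUSG00000030116, chromosome 6, 122505845 to 122529290, forward strand) gave the steadiest difference. It encodes MAGP-2, a small glycoprotein bound to fibrillin microfibrils. Control mice 1, 2 and 3 had 78.6, 83.1 and 84.9 CPM and SRF mice 1, 2 and 3 had 105.5, 129 and 101 CPM. Every SRF mouse was above every control mouse, and the control values lay within 1.08-fold of each other. The log2 fold change was 0.45 (standard error 0.13), under the threshold of 0.5, and p was 0.427 after Benjamini-Hochberg adjustment in edgeR. A two-sided exact permutation test gave p = 0.1, as low as 3 mice against 3 allow. Leaving out single mice kept the log2 fold change between 0.33 and 0.51.

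Fbn1 (ENSMUSG00000027204, chromosome 2, 125300594 to 125507993, reverse strand), the fibrillin-1 gene, differed little between the groups. It was at 104, 138 and 139 CPM in control mice and at 151, 162 and 121 CPM in SRF mice, in the order of the mouse numbers. SRF mouse 3 fell within the control range, and the log2 fold change was 0.19 (standard error 0.17). It was 0.064 without control mouse 1, 0.10 without SRF mouse 2 and 0.30 without SRF mouse 3. Mfap4 (ENSMUSG00000042436, chromosome 11, 61485431 to 61488900, forward strand) encodes a fibrinogen-like protein of elastic microfibrils. Its control values of 54.0, 111 and 158 CPM spanned 2.93-fold and enclosed the SRF values of 112, 136 and 121 CPM. The log2 fold change was 0.19 (standard error 0.35) and turned to -0.13 without control mouse 1, while it was 0.11 without SRF mouse 2 and 0.57 without control mouse 3. Mfap4 overlaps exons of Mapk7 on the opposite strand, and whether the counting used the strand is not given in the sources used here. Exons of Eln and Fbn1 also overlap opposite-strand genes, Gm30003 and Gm9913, neither of which is among the listed genes.

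The fibulins link tropoelastin to microfibrils and basement membranes. Fbln5 (ENSMUSG00000021186, chromosome 12, 101746565 to 101819055, reverse strand), fibulin-5, which is needed for elastic fiber assembly, was at 191, 243 and 329 CPM in control and at 286, 310.2 and 352 CPM in SRF mice. Control mouse 3 lay among the SRF mice, and the log2 fold change was 0.31 (standard error 0.21). It was 0.14 without control mouse 1, 0.54 without control mouse 3 and 0.060 without both photoreceptor-rich libraries. Fbln1 (ENSMUSG00000006369, chromosome 15, 85205949 to 85286535, forward strand), fibulin-1, ranged from 106 to 289 CPM in control mice and from 228 to 264 CPM in SRF mice. Its log2 fold change of 0.29 (standard error 0.33) became -0.013 without control mouse 1 and 0.64 without control mouse 3. Fbln2 (ENSMUSG00000064080, chromosome 6, 91212455 to 91272540, forward strand), fibulin-2, was at 41.7, 52.4 and 54.2 CPM in control and at 60.4, 60.0 and 45.4 CPM in SRF mice, with overlapping groups and a log2 fold change of 0.16 (standard error 0.17). With single mice left out the Fbln2 value lay between 0.051, without control mouse 1, and 0.28, without SRF mouse 3, and it was 0.087 without SRF mouse 1 and 0.096 without SRF mouse 2.

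Efemp1 (ENSMUSG00000020467, chromosome 11, 28853204 to 28926743, forward strand), the fibulin-3 gene, was the 1 member with a lower mean in SRF. Control mice 1, 2 and 3 had 107, 169 and 254 CPM, and SRF mice 1, 2 and 3 had 127, 149 and 176 CPM. All 3 SRF values lay inside the control range. The log2 fold change was -0.23 (standard error 0.30), and it turned to 0.12 without control mouse 3. It was -0.49 without control mouse 1, -0.36 without SRF mouse 3 and -0.13 without SRF mouse 1. Without control mouse 1 and SRF mouse 3 it was -0.62, and p was 0.173 after Benjamini-Hochberg adjustment in edgeR. Efemp2 (ENSMUSG00000024909, chromosome 19, 5473954 to 5482517, forward strand), the fibulin-4 gene, which acts in elastin cross-linking, varied least of the members. It ranged from 94.1 to 110 CPM in control and from 104 to 122 CPM in SRF mice, and its log2 fold change was 0.11 (standard error 0.12), or 0.051 without control mouse 1 and 0.036 without SRF mouse 2. Its exons overlap those of Mus81 on the opposite strand. Emilin1 (ENSMUSG00000029163, chromosome 5, 30913402 to 30921277, forward strand) encodes a glycoprotein found where elastin meets the microfibrils. It was at 36.8, 44.4 and 46.4 CPM in control and at 51.5, 62.8 and 45.5 CPM in SRF mice. This was a log2 fold change of 0.32 (standard error 0.16), and SRF mouse 3 lay below control mouse 3. It was 0.19 without SRF mouse 2 and 0.42 without SRF mouse 3.

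The 10 genes did not vary as a block. Within each library the ratio of the normalized counts of 2 members was taken for all 45 pairs. The steadiest pair was Fbn1 and Fbln2, whose ratio stayed between 2.48 and 2.70 in all 6 libraries. Fbln1 and Mfap4 came next, with ratios from 1.83 to 2.09, although each of these genes differed by more than 2.5-fold between control mice 1 and 3. Next were Fbn1 and Emilin1, at 2.58 to 3.11. The least steady pair was Eln and Efemp1, with a ratio of 0.106 in control mouse 3 and 0.533 in SRF mouse 1, a 5.03-fold span. The 4 pairs with the widest span all held Eln, the other 3 being Eln with Mfap4 (3.57-fold), Fbln1 (3.20-fold) and Fbln5 (3.03-fold). These ratios are a description of 6 libraries, and members of a pair share the library and its depth.

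**Figure D2:**
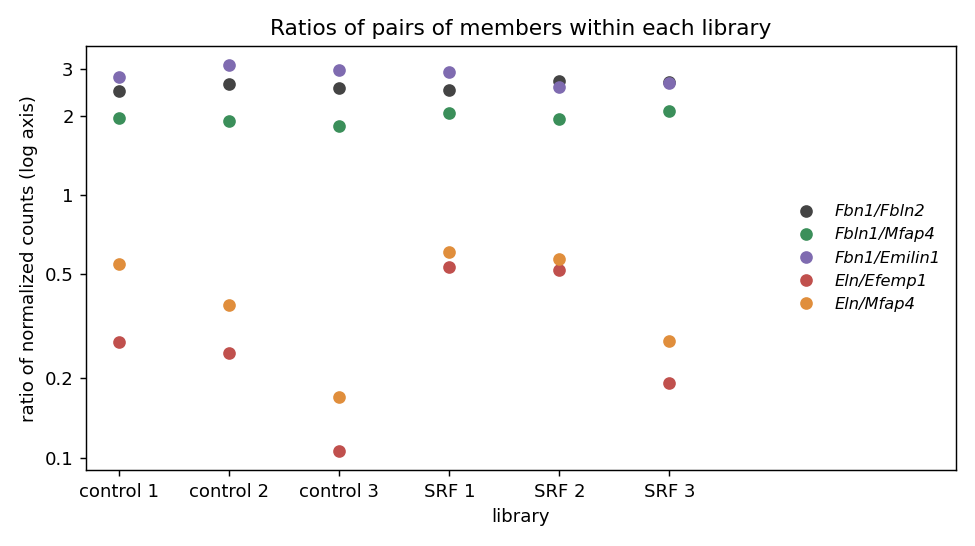
Ratio of normalized counts within each library (log axis) for the 3 steadiest pairs of members and for 2 pairs with Eln, 1 point per library. The Fbn1/Fbln2 and Fbln1/Mfap4 points lie nearly level, while Eln/Efemp1 runs from 0.106 to 0.533.

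The promoter of Fbn1 is shown with those of Fbln2 and Emilin1, its partners in 2 of the 3 steadiest pairs, as the sequences around the starts of these transcripts. Of the remaining pair, Fbln1 and Mfap4, only Fbln1 was matched to a window, so that pair is not shown. RefSeq windows on GRCm38.p6 were matched for 7 of the 10 members, other than Eln, Mfap4 and Mfap5. Each holds 250 bases before and 50 bases after a transcript start and is given 5′ to 3′ on the gene's strand: chr2:125506389-125506688 (reverse) for Fbn1, chr6:91212514-91212813 (forward) for Fbln2 and chr5:30913536-30913835 (forward) for Emilin1. All 3 windows begin inside the GENCODE span of their gene. Capitals mark matches on either strand to any of 4 motifs. The GC box was searched as GGGCGG. The TATA box was searched as TATAAA, the promoter element near many starts. The CCAAT box was searched by its name. The AP-1 site was searched as TGANTCA, where N is any base.
Fbn1: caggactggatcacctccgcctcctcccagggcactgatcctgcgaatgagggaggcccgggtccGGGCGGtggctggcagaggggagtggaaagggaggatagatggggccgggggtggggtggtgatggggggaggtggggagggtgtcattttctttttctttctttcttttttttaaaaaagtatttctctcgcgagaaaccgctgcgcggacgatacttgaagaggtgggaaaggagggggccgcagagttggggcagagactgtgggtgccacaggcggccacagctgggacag
Fbln2: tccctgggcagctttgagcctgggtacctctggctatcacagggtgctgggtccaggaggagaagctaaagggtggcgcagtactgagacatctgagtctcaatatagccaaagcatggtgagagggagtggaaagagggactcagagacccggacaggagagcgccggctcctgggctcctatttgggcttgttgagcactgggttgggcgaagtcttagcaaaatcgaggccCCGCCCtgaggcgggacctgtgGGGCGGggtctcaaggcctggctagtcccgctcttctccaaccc
Emilin1: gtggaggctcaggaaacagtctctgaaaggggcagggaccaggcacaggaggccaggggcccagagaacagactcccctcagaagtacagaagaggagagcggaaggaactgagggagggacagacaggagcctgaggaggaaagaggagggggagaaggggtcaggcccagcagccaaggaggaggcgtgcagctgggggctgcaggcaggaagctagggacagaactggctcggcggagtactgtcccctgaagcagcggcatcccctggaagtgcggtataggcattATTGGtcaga
The Fbn1 window held 1 GC box and the Fbln2 window 2, at a GC content of 60.3% in both. The Emilin1 window held 1 CCAAT box and no GC box, at 61.7% GC. This CCAAT box and the second Fbln2 GC box lie after the transcript start. None of the 3 windows held a TATA box or an AP-1 site. The GC box is found in 35.7% of all 32851 windows of this length, the CCAAT box in 37.4%, the TATA box in 13.6% and the AP-1 site in 7.81%. Over all 11 windows of the 7 members, 8 held a GC box, 2 a CCAAT box, 0 a TATA box and 1, that of Efemp1, an AP-1 site. These windows are not independent, since those of Fbln1 and some of Efemp2 overlap each other. Median GC content was 60.3% in the member windows and 52.7% in all windows. Overlapping matches were counted separately, and no pair of these motifs shared a match in the windows shown.

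Control mouse 1 was the lowest of the 6 libraries for 9 members and control mouse 3 for the remaining 1, Eln. Among all tested genes 19.9% were lowest in control mouse 1 and 15.3% in control mouse 3. SRF mouse 2 was the highest library for 5 members (14.1% of all tested genes). Control values spanned more than 2-fold for Fbln1, Mfap4 and Efemp1, from 2.37-fold for Efemp1 to the span of Mfap4, and less than 1.8-fold for the other 7 members. In SRF mice the widest span was that of Eln, at 2.28-fold.

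**Figure D3:**
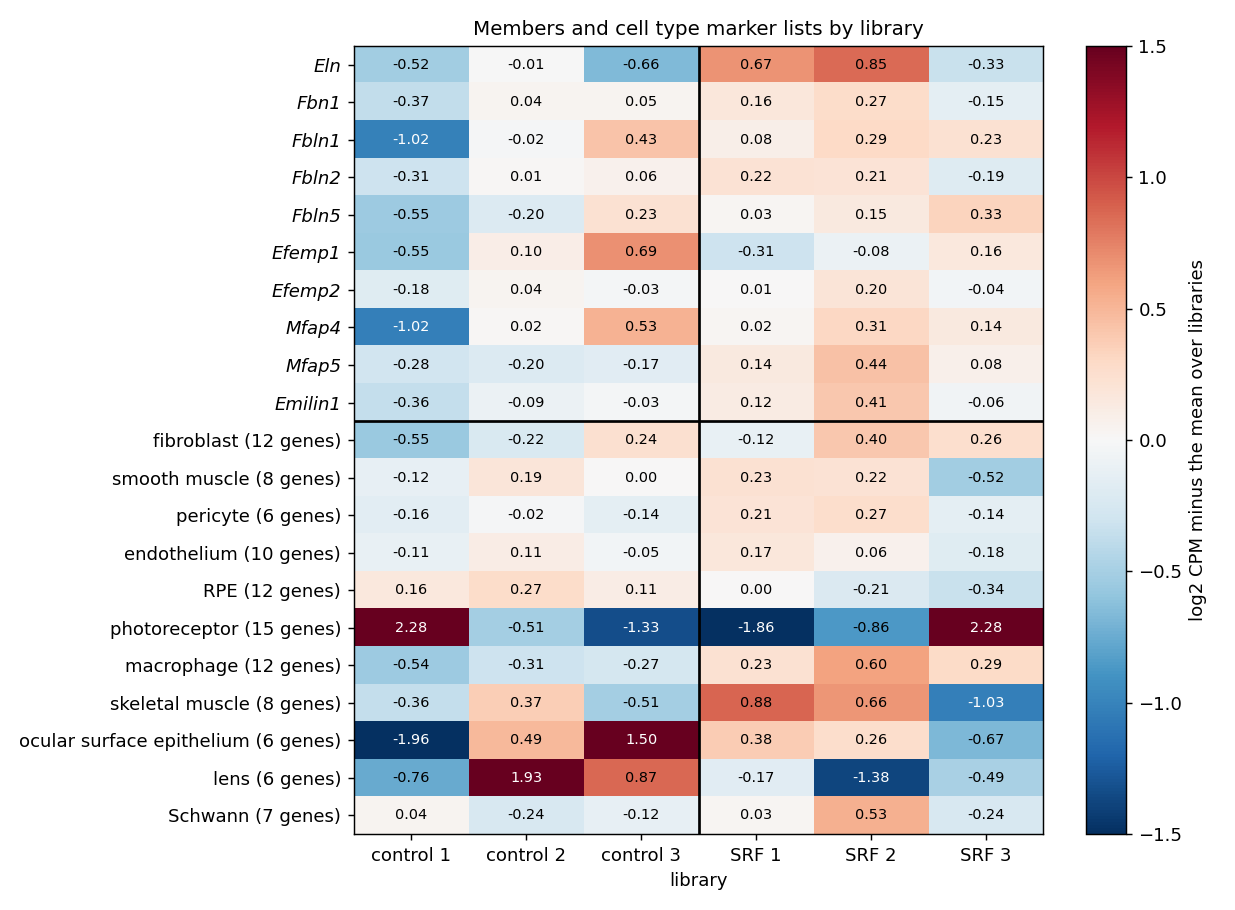
Log2 CPM of each member and mean log2 CPM of each cell type marker list, with the mean over the 6 libraries subtracted, by library (columns). Colour ends at 1.5 either way, blue is below and red above the mean. In SRF mice 1 and 2 Eln is at 0.67 and 0.85 and the skeletal muscle list at 0.88 and 0.66. The pericyte list is at 0.21 and 0.27 in the same mice. Fbln1 and Mfap4 are both at -1.02 in control mouse 1.

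Markers of several other cell types differed between the libraries, and their part in the members' values was not tested. Fibroblasts, which can make elastic fiber proteins, were followed with 12 markers, of which 11 were higher in SRF and 0 were called in edgeR. The marker lower in SRF, Fap, had the smallest p-value of the 12. Its log2 fold change was -0.46, without overlap of the groups (adjusted p = 0.025 in DESeq2). Summed CPM of the 12 was 5358, 6715 and 11723 in control mice 1, 2 and 3 and 8035, 10878 and 12800.5 in SRF mice 1, 2 and 3. Dcn alone gave a large part of this sum, with 2628 CPM in control mouse 1 and 7244 CPM in SRF mouse 3. Control mouse 1 had the lowest fibroblast sum, as it was lowest for 9 members. Summed CPM of 8 smooth muscle markers lay between 855 and 1040 in control and between 685 and 1040 in SRF mice, with 4 markers higher and 4 lower. Summed CPM of 8 skeletal muscle markers was 1162, 1929 and 1180 in control mice 1, 2 and 3 and 2740, 2308 and 750 in SRF mice. The libraries with most skeletal muscle RNA, SRF mice 1 and 2, were those with most Eln. Among control mice, mouse 2 had the most of both. SRF mouse 3 had the least skeletal muscle RNA but more Eln than control mice 1 and 3. Mean log2 CPM of 6 pericyte markers was also highest in SRF mice 1 and 2, at 0.21 and 0.27 above the mean over libraries. For the smooth muscle markers these values were 0.23 and 0.22, with control mouse 2 at 0.19. Summed CPM of the pericyte markers gave another order, with 1315, 1352 and 1898 in control and 1534, 1775 and 1851 in SRF mice. The highest sum was that of control mouse 3, where Rgs5 alone gave 1667 CPM. Macrophage markers were higher in SRF for 11 of 12, from 1366 to 1788 CPM summed in control and from 3197 to 4623 CPM in SRF mice. Of 12 RPE markers 11 were lower in SRF. DESeq2 called 5 macrophage markers as higher and 2 RPE markers as lower (1.14% of all genes either way), while edgeR called 0 of both lists. The groups did not overlap for 8 macrophage and 6 RPE markers (13.1% of all tested genes).

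Per transcript length, in the authors' FPKM values, the members fell into an abundant and a less abundant group. In control mice Fbln5 had the highest mean, at 99.2 ± 27.3 FPKM (SD, n = 3), followed by Efemp1 at 97.4 ± 40.7, Fbln1 at 68.6 ± 32.3, Mfap5 at 67.8 ± 0.66, Efemp2 at 62.8 ± 4.65 and Mfap4 at 62.2 ± 30.1 FPKM. Neighbours in this order overlapped in their control values, except Mfap5 and Efemp2, whose nearest values were 67.13 and 66.54 FPKM. The other 4 members were lower, with Fbn1 at 12.6 ± 1.98, Emilin1 at 10.9 ± 1.28, Eln at 10.7 ± 2.92 and Fbln2 at 10.4 ± 1.42 FPKM, and neighbours among them overlapped. No control library of Mfap4 overlapped any of Fbn1. In SRF mice Fbln5 was again first, at 127 ± 12.9 FPKM, followed by Mfap5 at 94.2 ± 14.6, Fbln1 at 88.0 ± 6.39 and Efemp1 at 81.3 ± 9.82 FPKM. Eln, at rank 9 in control mice, was at rank 7 in SRF mice with 19.997 ± 7.49 FPKM.

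**Figure D4:**
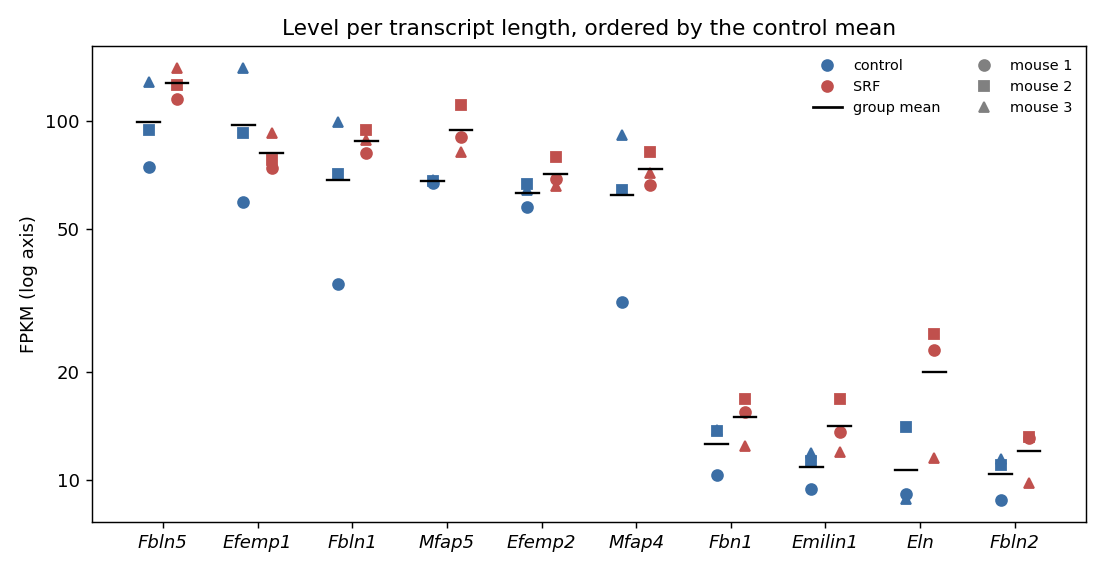
FPKM (log axis) of the members in each library, ordered by their control mean, with group means as black bars. Fbln5 to Mfap4 have means between 62.2 and 127 FPKM and Fbn1 to Fbln2 between 10.4 and 19.997 FPKM.

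Other genes of elastic fiber biology were read from the same test, and 0 of them were called in edgeR. Before adjustment, p was under 0.05 for 2 lysyl oxidases, 4 proteases and 5 receptor genes, against 7.01% of all tested genes. The lysyl oxidases, which cross-link elastin and collagen, were higher in SRF for 5 of 5, with a median log2 fold change of 0.42. As for most members, control mouse 1 was the lowest library for all of them but Loxl2 (19.9% of all tested genes). Lox was at 15.1, 28.5 and 48.8 CPM in control mice and at 55.3, 78.1 and 100.3 CPM in SRF mice. Every SRF mouse had more Lox than every control mouse, and the log2 fold change was 1.33 ± 0.42 (standard error). After Benjamini-Hochberg adjustment p was 0.521 in edgeR and 0.0614 in DESeq2. Loxl1, the member of the family most tied to elastic fiber upkeep, was at 129, 189 and 202 CPM in control and at 238, 304 and 250.2 CPM in SRF mice, again without overlap. Its log2 fold change was 0.60 (standard error 0.20). For Loxl3 the groups overlapped, at a log2 fold change of 0.42 (standard error 0.20).

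Genes of other microfibril proteins and of the proteins that tether latent TGF-beta to them gave small differences. Of 6 tested, 5 were higher in SRF, 0 had an unadjusted p-value under 0.05 in edgeR, and DESeq2 called 0. Control mouse 1 was the lowest library for all of them but Fbn2. Ltbp4, which works with fibulin-5 in elastin assembly, was at 126, 155 and 155 CPM in control and at 163, 207 and 173 CPM in SRF mice, with no overlap and a log2 fold change of 0.32 (standard error 0.14). Log2 fold changes were 0.23 for Mfap2 and 0.20 for Fbn2, the second fibrillin gene, both with overlapping groups. Among 6 relatives of emilins and fibulins 4 were higher and 2 lower. Emilin2 had the smallest p-value of these, at 1.86, 5.74 and 4.83 CPM in control and 5.93, 9.22 and 6.93 CPM in SRF mice (log2 fold change 0.82, standard error 0.43).

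Some of the proteases able to cut elastin gave the largest differences among these related genes. Of 11 listed by name 8 were found, other than Mmp7, Elane and Prtn3, and all 8 had a positive log2 fold change. It was 0.009 for Mmp9, and the groups overlapped for Mmp2, Mmp9, Ctsk and Ctsl. Control mouse 1 was the lowest library for all 8 but Mmp9. DESeq2 called 3 of them, Mmp12, Ctss and Mmp14 (DESeq2 called 0.803% of all genes as higher). Mmp12, macrophage elastase, had 0.805, 0.725 and 1.38 FPKM per FPKM of Eln in control mice 1, 2 and 3. In SRF mice 1, 2 and 3 this ratio was 2.46, 2.11 and 5.47. All 3 SRF ratios were above all 3 control ratios (p = 0.1 in a two-sided exact permutation test, which cannot go lower here). Mmp12 alone had 7.33, 10.2 and 12.2 FPKM in control mice against 56.5, 54.0 and 62.8 FPKM in SRF mice. The highest ratio, that of SRF mouse 3, thus went with the lowest Eln among SRF mice, 11.48 FPKM. For Mmp12 the Benjamini-Hochberg adjusted p-value was 0.0504 in edgeR, just above the threshold, and 5.1e-27 in DESeq2. Ctss, the elastin-cutting cathepsin S of phagocytes, was between 172 and 191 CPM in control and between 446 and 676 CPM in SRF mice. Mmp14, a membrane-bound metalloproteinase, was at 93.7, 115 and 132 CPM in control and at 164, 209 and 165 CPM in SRF mice (log2 fold change 0.66, standard error 0.17, adjusted p = 0.0498 in DESeq2 and 0.410 in edgeR with Benjamini-Hochberg adjustment).

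**Figure D5:**
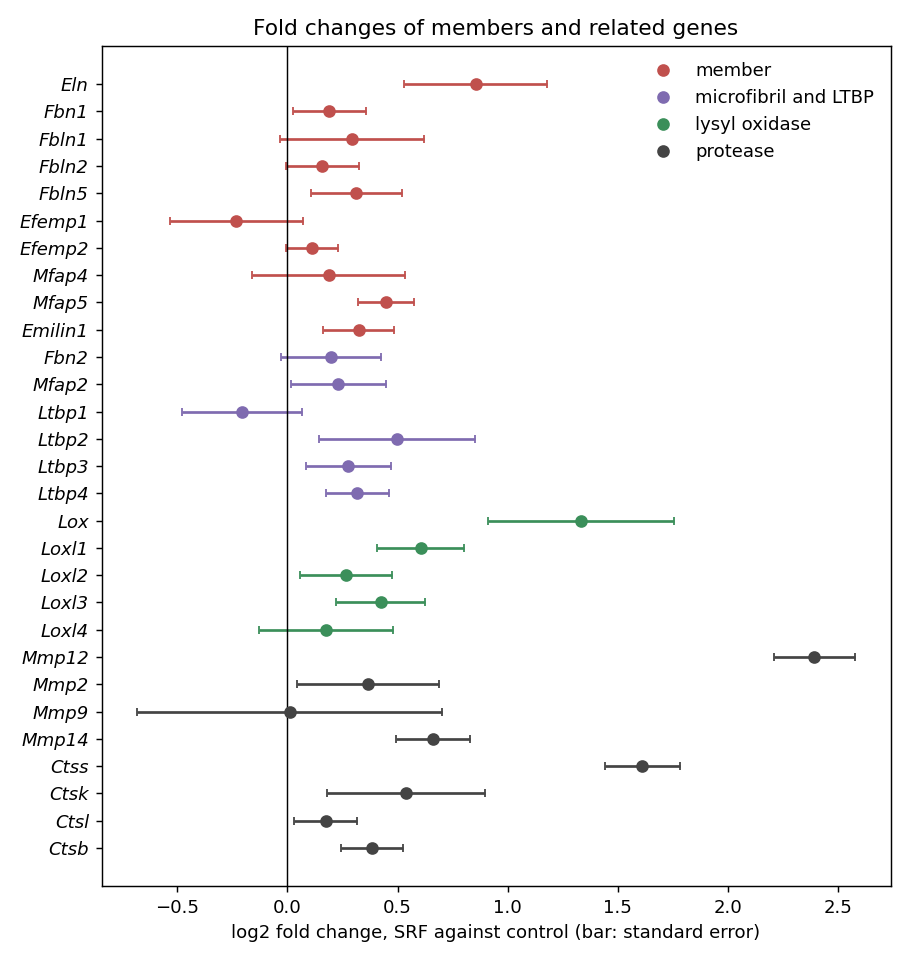
Log2 fold change of SRF against control from edgeR, with its standard error as a bar, for the members and 3 groups of related genes. Members lie between -0.23 and 0.86, lysyl oxidases reach 1.33 with Lox, and Mmp12 stands at 2.39.

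Elastin receptor genes differed in both directions. Of 8 tested 5 were higher and 3 lower in SRF, and DESeq2 called 1 in each direction. Itgb5, the integrin beta 5 chain, was between 91.8 and 96.8 CPM in control and between 179 and 214 CPM in SRF mice. Itgav, the alpha v chain that pairs with it, was between 288 and 293 CPM in control and between 179 and 213 CPM in SRF mice. This gave a log2 fold change of -0.57 (standard error 0.11). In the authors' FPKM values the Itgav groups overlapped, at 221, 241 and 184 in control and 206, 168 and 104 in SRF mice. Lgals3, galectin-3, was at 92.0 to 179 CPM in control and at 207 to 326 CPM in SRF mice. DESeq2 did not call it, and its log2 fold change in edgeR was 0.93 (standard error 0.28). Of 15 other matrix genes of Bruch's membrane 10 were higher and 5 lower in SRF, with a median log2 fold change of 0.08 and 0 unadjusted p-values under 0.05 in edgeR.

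The tested genes whose profile over the 6 libraries was nearest to that of Eln were Prob1, Fabp4, Col5a3, Fyb and Sema6c. Likeness was measured as the root mean square difference of log2 CPM after each gene's mean was subtracted, and it was 0.112 for Prob1 and 0.163 for Sema6c, against a median of 0.611 over 13453 genes. Fabp4, a fatty acid carrier of fat cells and capillaries, was at 9.21, 11.4 and 8.95 CPM in control and at 21.6, 19.5 and 10.5 CPM in SRF mice. Col5a3, a collagen V chain, was at 4.16, 6.01 and 3.87 CPM in control and at 11.4, 10.1 and 4.02 CPM in SRF mice. As with Eln, SRF mice 1 and 2 were high and SRF mouse 3 was near the control mice. For Fbn1 the nearest genes were Nfkbie, Ahnak, Fbln2, Evc and Ccdc102a, at distances from 0.0475 to 0.0514, against a median of 0.303. Fbln2 was thus 1 of the 5 genes closest to Fbn1, and no other member was among them. The distance between Fbn1 and Fbln2 measures much the same spread as their ratio above, so it is not separate evidence of likeness.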

How the data were processed

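RNA of RPE-choroid from 3 control and 3 SRF mice was sequenced by the authors. Reads were filtered with FASTP and counted per gene with StringTie, and the authors deposited the raw counts. FPKM values deposited beside them are scaled by transcript length and mapped reads. The length implied by counts and FPKM differed between libraries by at most 1.12-fold for any member (Efemp1). The aligner, genome build and strand setting are not given in the sources used here. The lowest count listed was 1. Of 15663 identifiers, 15659 were found in GENCODE M21 (GRCm38), which gave symbols and positions.

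The 13454 genes whose count passed 50 in 2 or more libraries were tested with edgeR 4.0.16 in R 4.3.3, using TMM, estimateDisp, glmQLFit with legacy = TRUE, its installed default, and glmQLFTest, with group as the only term and Benjamini-Hochberg adjustment. Standard errors are the log2 fold change divided by the root of the F statistic. DESeq2 1.42.0, limma 3.58.1 (voom on counts, and log2 FPKM with a pseudocount of 0.1 or 1), further normalizations and filters, a photoreceptor covariate, a replicate block and left-out mice were alternatives. The fits were first tested on simulated data. The members, gene lists and tests were chosen with earlier results of these data known. The text names all members, up to 3 genes of a list by smallest p-value, the preset genes Mmp12, Lox, Loxl1, Mfap2, Fbn2 and Ltbp4, and the 5 genes most like Eln and most like Fbn1. The pairs of members with steady or unsteady ratios were picked after their values were seen.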

Additional observations from a re-analysis of the deposited data

How the results depend on the processing

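No elastic fiber gene was called in the main test or in any of 18 alternatives. Over all genes the main count of 0 became 1 with upper quartile normalization, legacy = FALSE, limma voom, no filter on low counts, filterByExpr or the photoreceptor covariate, 2 with limma on either FPKM scale, 153 with DESeq2, 154 without control mouse 1 and SRF mouse 3, and 0 to 5 with 1 mouse left out. The cause was not tested. Members with an unadjusted p-value under 0.05 numbered 1 to 3 with 1 mouse left out. The log2 fold change changed sign in 5 of 180 member values. Without control mouse 1 and SRF mouse 3 it was -0.026 for Fbln1 and -0.12 for Mfap4. With 1 mouse left out it ran from -0.013 to 0.64 for Fbln1, from -0.13 to 0.57 for Mfap4 and from -0.49 to 0.12 for Efemp1. The members' median ran from 0.06 to 0.43 with 1 mouse left out. When mouse numbers entered as a replicate block, 0 genes were called and 3 members had an unadjusted p-value under 0.05. Mice with the same number share only that number, and deviations of numbers 1, 2 and 3 from their group means correlated at -0.48, 0.49 and -0.30 across genes. With 3 mice a group and standard errors of log2 fold changes near 0.19, differences of that size could not be resolved.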
